A study of Mus musculus with 6 samples.

Results

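Genes of the cell cycle and of DNA replication were examined in a fast-twitch muscle of the hindlimb, extensor digitorum longus (EDL), of 50-week-old mice. The set holds 44 genes chosen by symbol, from the cyclins and their kinases to the replication machinery and the mitotic spindle, and all 44 were found among the 24411 genes of the deposited table. The 3 mAktDKO mice carried floxed Akt1 and Akt2 alleles together with Mlc1f-Cre, a Cre recombinase knocked in at a myosin light-chain gene, and the 3 control mice carried the floxed alleles without Cre. All mice had the C57BL/6J strain label, and the study's methods give males unless stated otherwise. Mlc1f is active mainly in fast-twitch fibres and, according to the study, its promoter works little in satellite cells, so that the deletion concerns the fibres rather than the precursor cells of the same muscle. Each library came from whole muscle, in which fewer cells of a type and less RNA per cell cannot be told apart.

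A dividing cell passes through a fixed order of steps. Cyclin D with Cdk4 or Cdk6, followed by cyclin E with Cdk2, releases E2F factors in the G1 phase. Licensing factors load the Mcm helicase onto origins before the S phase, in which DNA is copied. Cyclin A and cyclin B with Cdk1 then carry the cell through mitosis. Muscle fibres are syncytia whose nuclei have left the cell cycle for good, whereas satellite cells, endothelial cells, fibro-adipogenic progenitors and leukocytes between the fibres can divide. Mitotic transcripts in whole muscle are therefore commonly read as a trace of dividing mononuclear cells, while several cyclins and kinases of the G1 phase, and replication factors that also serve DNA repair, are found in cells at rest.

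The promoters of these genes are known for a few short elements. The cell cycle homology region, TTTGAA, is bound by the DREAM and MuvB complexes and is typical of genes of mitosis, and the E2F element, TTTGGCGC or TTTCCCGC, is typical of genes of DNA synthesis. Both were searched for on both strands in the 250 bases before the annotated start in RefSeq (build GRCm38.p6), together with CCAAT, the binding site of NF-Y, and none of these elements contains another. Of the 44 genes, 36 had an entry, and Ccnd1, Ccnd2, Ccne2, Gins1, Mcm4, Ccna2, Aurkb and Kif20a had none. TTTGAA was present in 10 of the 36 genes (27.8%), against 18.3% of the 27025 genes with an entry. The 10 genes were Ccnb2, Cdc20, Cdk1, Kif11, Mki67, Prc1, Top2a and Ube2c, which are 8 of the 17 mitotic genes with an entry, and Cdc45 and Mcm2, which are 2 of the 9 genes of licensing and the replication fork. An E2F element was present in Mcm5, Mcm6, Mcm7, Cdc6 and Cdk2, which are 5 of the 36 genes (13.9%), against 1.51% of all genes with an entry. CCAAT was present in 26 of the 36 genes (72.2%), against 37.5% of all genes. The promoters of 4 genes are printed because their genes stand for both classes in the results that follow, with the elements TTTGAA (or TTCAAA on the other strand) and TTTGGCGC in capitals. They are Mki67 (chr7:135716380-135716629), Top2a (chr11:99024190-99024439), Cdk1 (chr10:69352913-69353162) and Mcm6 (chr1:128359706-128359955), each on the minus strand and written 5′ to 3′.
Mki67: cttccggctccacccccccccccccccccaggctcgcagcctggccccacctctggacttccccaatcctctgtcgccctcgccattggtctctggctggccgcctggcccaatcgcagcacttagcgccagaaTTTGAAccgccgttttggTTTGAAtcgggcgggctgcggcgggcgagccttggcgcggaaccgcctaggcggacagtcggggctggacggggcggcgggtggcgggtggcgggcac
Top2a: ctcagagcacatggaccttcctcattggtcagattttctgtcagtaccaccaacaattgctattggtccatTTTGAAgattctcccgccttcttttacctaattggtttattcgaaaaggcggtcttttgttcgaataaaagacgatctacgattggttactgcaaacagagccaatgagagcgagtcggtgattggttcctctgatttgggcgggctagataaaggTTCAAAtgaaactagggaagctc
Cdk1: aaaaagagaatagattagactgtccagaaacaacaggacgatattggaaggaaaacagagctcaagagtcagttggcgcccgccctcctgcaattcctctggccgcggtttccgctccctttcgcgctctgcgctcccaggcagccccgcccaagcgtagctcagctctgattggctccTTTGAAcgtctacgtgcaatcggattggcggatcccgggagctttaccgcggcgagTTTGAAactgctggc
Mcm6: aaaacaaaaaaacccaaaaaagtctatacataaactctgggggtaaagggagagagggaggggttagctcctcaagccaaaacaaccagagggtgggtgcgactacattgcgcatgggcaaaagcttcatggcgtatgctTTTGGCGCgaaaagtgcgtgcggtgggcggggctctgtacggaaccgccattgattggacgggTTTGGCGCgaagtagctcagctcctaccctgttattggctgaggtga
Mki67 and Cdk1 each held TTTGAA at 2 positions, Top2a once on each strand, and Mcm6 held TTTGGCGC at 2 positions. A match is a description of the letters in the window and not a site of binding.

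The libraries held between 13738795 and 15445523 estimated counts, at which 3 counts correspond to between 0.18 and 0.227 CPM, the counts relative to a library total scaled by the TMM method. Akt2 lay between 49.1 and 52.7 CPM in mAktDKO mice and between 133 and 172 CPM in control mice, the direction that the labels give. Akt1, whose counts are per gene and not per deleted exon, lay between 51.4 and 58.9 CPM and between 65.5 and 66.5 CPM. The control mice carry the numbers 2 to 4 in the table. Control mouse 2 stood apart from the other 5 mice, with a median Spearman correlation over all tested genes of 0.978, against 0.986 to 0.987 in the others, so the main results are also given without it. The 10 markers of fast muscle fibres summed to 109830 to 121289 CPM in the mAktDKO mice and 125775 to 136320 CPM in the control mice, so the defining genes of the labelled tissue were present.

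The comparison of genotypes asks whether loss of Akt in the fibres came with a different level of cell cycle transcripts in the aged muscle. The data show a higher average for most of these genes in the mAktDKO mice, with a spread between mice close to the size of the difference, and no gene that passed the test. The mean of log2 CPM over the 39 genes above the filter on low counts was 2.31, 1.93 and 1.58 in mAktDKO mice 1 to 3 and 0.75, 1.94 and 1.35 in control mice 2 to 4. The groups overlapped, since control mouse 3 lay above mAktDKO mice 2 and 3. The group means were 1.94 ± 0.36 (SD, n = 3) and 1.34 ± 0.59 (SD, n = 3), a difference of 0.60 on the log2 scale beside a pooled SD between mice of 0.49. Without control mouse 2 the control mean was 1.64 and the difference 0.30, whereas a refit without control mouse 3 gave a difference of 0.94. Summed over all 44 genes, the level was 369, 318 and 263 CPM in mAktDKO and 188, 288 and 255 CPM in control mice. The means were 317 ± 52.7 and 244 ± 51.1 CPM (SD, n = 3 each), and the control mean was 272 CPM without control mouse 2.

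**Figure D1:**
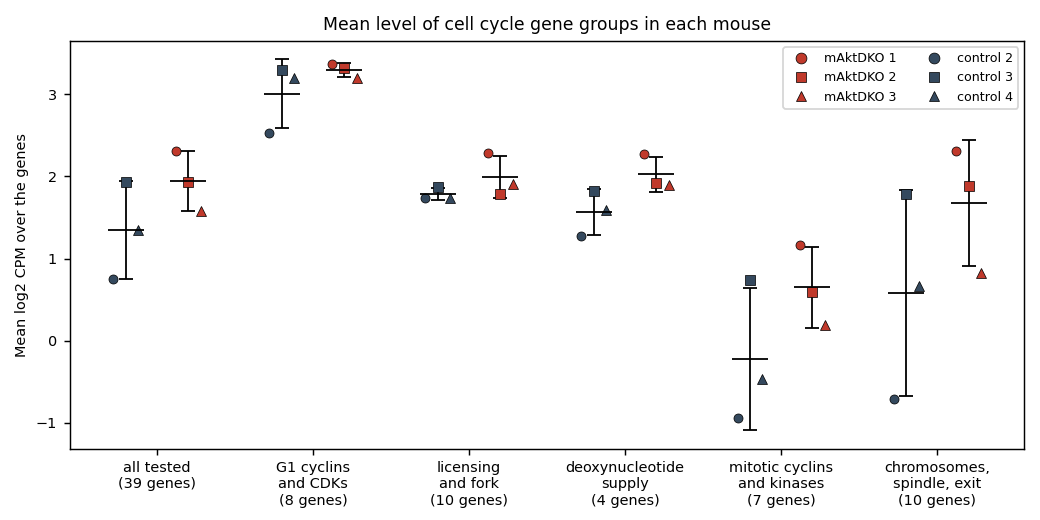
Mean log2 CPM over the tested genes of each role group in each mouse (points), with the group mean and SD (bars, n = 3), control mice in dark blue and mAktDKO mice in red. Control mouse 2 is the lowest mouse in 4 of the 5 role groups, and the gap between mice is widest in the 2 mitotic groups.

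By gene, 34 of the 39 tested genes had a log2 fold change above 0 and 5 had one below 0, whereas 52.5% of all 12892 tested genes lay above 0. The median log2 fold change was 0.57, with standard errors (SE) from 0.10 to 0.76, against a median of 0.017 over all tested genes. With edgeR's quasi-likelihood test, 0 of the 39 genes were called at an adjusted p under 0.01, against 0.0233% of all tested genes. At an adjusted p under 0.05 it was also 0 of 39, against 1.18% of all genes in either direction and 0.264% in the higher direction. At an unadjusted p under 0.05, 6 of the 39 genes were higher, against 11.4% of all genes, and 0 were lower, against 13.1% of all. DESeq2 gave 13 of the 44 genes an adjusted p and called 0 of them (3.55% of the 9616 genes with one), and 5 of the 44 were higher at an unadjusted p under 0.05, against 6.11% of the 17357 genes with a DESeq2 p. Every mAktDKO mouse lay above every control mouse for 6 of the 39 genes, against 14.5% of all genes in that direction. These were Ccnd3, Cdt1, Mcm4, Mcm6, Rrm2 and Bub1b. The opposite order was found for 0 of the 39 genes, against 16.6% of all. Without control mouse 2, when 42 genes were tested, 35 lay above 0 with a median of 0.36, and 2 genes, Rrm2 and Bub1b, had an unadjusted p under 0.05 in the higher direction (9.05% of all genes) and 0 in the lower one (10.2% of all). Without overlap between the groups 6 were higher (19.2% of all genes) and 1, Ccne2, was lower (19.5% of all). At an adjusted p under 0.01 (0.0609% of all genes) or under 0.05 (1.1% of all, and 0.312% in the higher direction) 0 of the 42 were called. These counts changed with other mice as well. Without control mouse 3, 19 of the 42 genes then tested were higher at an unadjusted p under 0.05 (11.3% of all genes) and 25 were higher without overlap (21.1% of all). Without mAktDKO mouse 3 it was 10 of 42 (9.09% of all) and 20 of 42 (20.8% of all), and at that p it was 2 of 39 (8.53% of all) without mAktDKO mouse 1 and 3 of 39 (6.28% of all) without mAktDKO mouse 2. Another 5 genes stayed under the filter in the comparison of all mice, with at most 23 counts in any mouse. They were Ccne1, Cdc6, Plk1, Bub1 and Birc5. Cdt1 passed the filter through the mAktDKO mice alone.

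**Figure D2:**
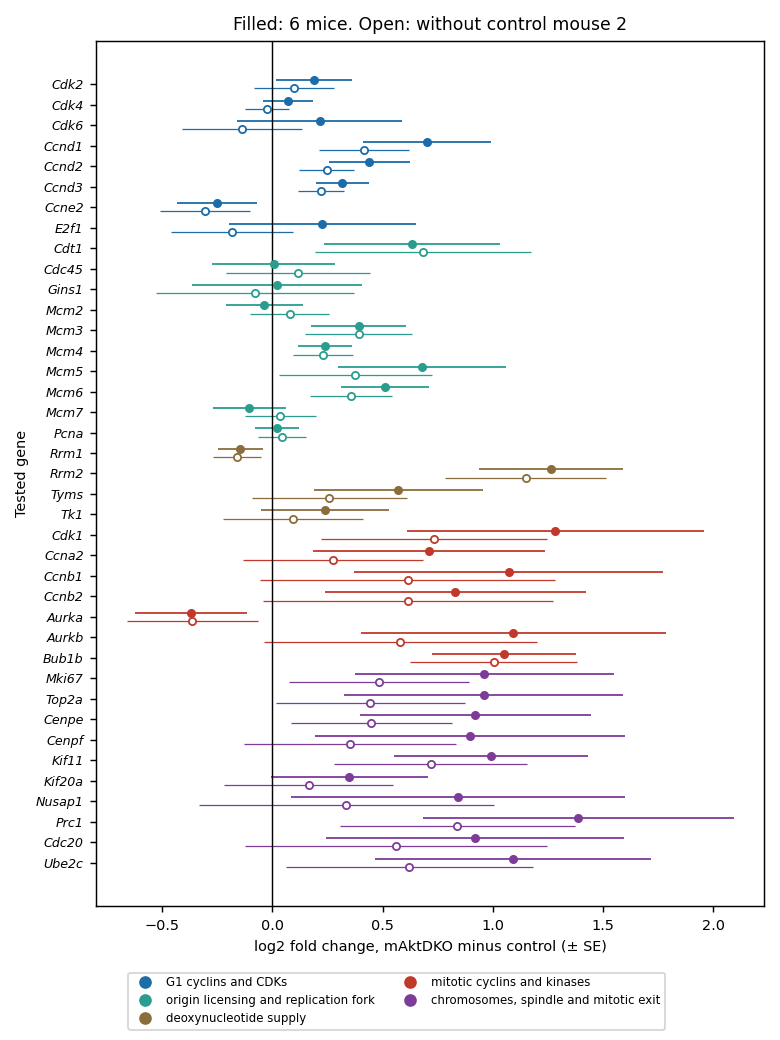
Log2 fold change (mAktDKO minus control, horizontal axis) with its standard error for the 39 tested genes, coloured by role, with all 6 mice (filled) and without control mouse 2 (open). Most filled points lie right of 0, from Aurka at -0.37 to Prc1 at 1.39, and the open points of the mitotic genes lie nearer to 0 with wide errors.

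The D-type cyclins answer to growth factors and open the G1 phase, and Ccnd1 and Ccnd2 were, after Pcna, the genes of the set with the highest mean level per length over both groups. Per kilobase of exon, Ccnd1 reached 7.24 CPM in the mAktDKO mice and 4.47 CPM in the control mice, Ccnd2 7.18 and 5.30 CPM, and Ccnd3 2.80 and 2.25 CPM, beside 6.46 and 6.35 CPM for Pcna. Ccnd1, on chromosome 7 of GRCm38 from 144929931 to 144939925, was at 44.2, 33.1 and 25.0 CPM in mAktDKO and 12.0, 28.0 and 23.1 CPM in control mice. The third mAktDKO mouse lay between control mice 3 and 4, and control mouse 2 was far below the rest. Its log2 fold change was 0.70 (SE 0.29, edgeR adjusted p = 0.18), and 0.42 without control mouse 2. Ccnd2, on chromosome 6 from 127125162 to 127152193, was at 66.1, 74.7 and 61.8 CPM against 35.7, 49.4 and 64.5 CPM. Here too the groups overlapped through 1 mouse on each side, with a log2 fold change of 0.44 (SE 0.18, edgeR adjusted p = 0.183), and 0.25 without control mouse 2 or 0.67 without control mouse 4. Ccnd3, on chromosome 17 from 47505051 to 47599691, was at 25.0, 26.5 and 22.1 CPM against 17.0, 21.6 and 20.6 CPM. Its groups did not overlap, though mAktDKO mouse 3 and control mouse 3 were close, and its log2 fold change was 0.32 (SE 0.12, edgeR adjusted p = 0.151).

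The kinases, cyclin E and E2f1 overlapped between the groups. Cdk4, a main kinase of the D-type cyclins, was at 18.6, 17.2 and 17.2 CPM in mAktDKO and 14.5, 17.4 and 18.5 CPM in control mice. The groups overlapped throughout, with a log2 fold change of 0.072 (SE 0.11), and without control mouse 2 it was -0.024. Cdk6, the related kinase, ranged from 2.13 to 2.73 CPM and from 0.98 to 3.28 CPM. Cdk2, the kinase of cyclin E, ranged from 4.39 to 5.20 CPM and from 3.64 to 4.76 CPM. Ccne2, a cyclin E, was the only gene of this group with a negative log2 fold change (-0.25, SE 0.18), at 2.98 to 3.84 CPM in the mAktDKO mice and 3.71 to 4.38 CPM in the control mice. Its relative Ccne1 had 4 to 11 counts in the mAktDKO mice and 3 to 5 in the control mice, too few to compare. E2f1, the E2F factor that activates genes of DNA synthesis, was at 1.78, 1.86 and 1.85 CPM against 0.56, 2.41 and 1.74 CPM, so that the low value of control mouse 2 alone set its positive log2 fold change of 0.23 (-0.18 without that mouse). Over the 8 tested genes of the group, 7 lay above 0 with all mice and 4 did without control mouse 2.

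**Figure D3:**
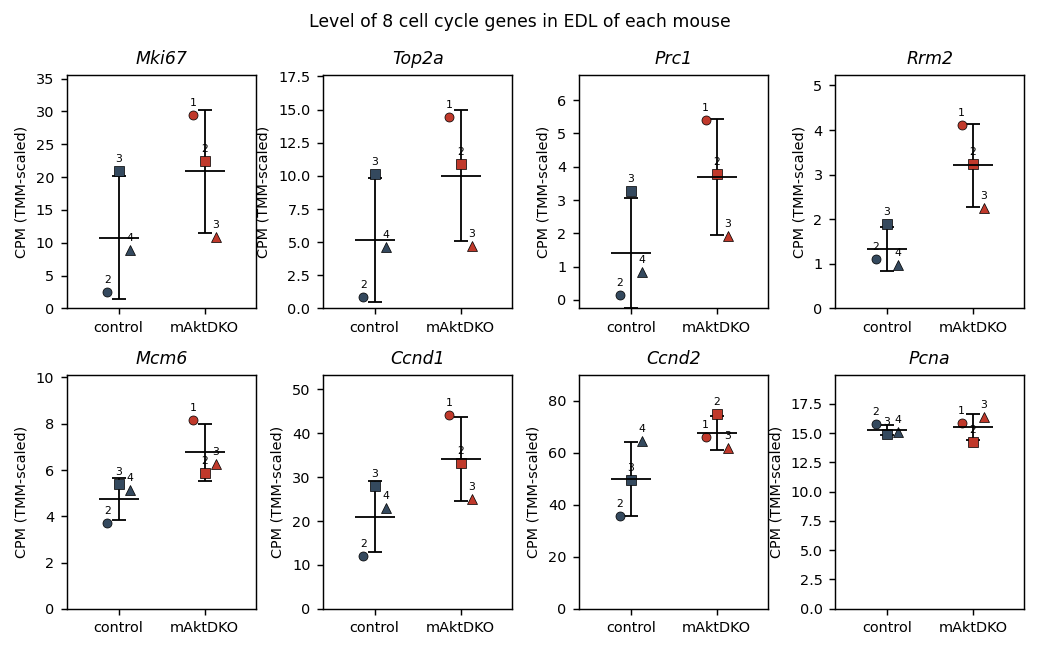
Level of 8 cell cycle genes in each mouse (points with the mouse number), in TMM-scaled CPM on linear axes, with the group mean and SD (bars, n = 3). Mki67, Top2a and Prc1 differ more than 5-fold between control mice 2 and 3, whereas Pcna lies between 14.3 and 16.4 CPM in all 6 mice.

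Of the 10 tested genes of licensing and the replication fork 8 lay above 0, with a median log2 fold change of 0.13 (0.17 without control mouse 2), and their mean log2 CPM differed by 0.21 between the groups (0.064 without mAktDKO mouse 1). Pcna, the sliding clamp of the DNA polymerases that also serves DNA repair, lies on chromosome 2 from 132249162 to 132253314. It was at 15.9, 14.3 and 16.4 CPM in mAktDKO and 15.7, 15.0 and 15.0 CPM in control mice. The means were 15.5 ± 1.11 and 15.2 ± 0.42 CPM (SD, n = 3 each), and the log2 fold change was 0.023 (SE 0.10, edgeR adjusted p = 0.908). The 6 subunits of the Mcm2-7 helicase, which unwinds DNA at the fork, were read gene by gene, and differences between them were not tested. Mcm6, on chromosome 1 from 128331590 to 128359664, was at 8.18, 5.87 and 6.24 CPM against 3.71, 5.40 and 5.14 CPM. Its groups did not overlap, and its log2 fold change was 0.51 (SE 0.20, edgeR adjusted p = 0.161). Mcm4, on chromosome 16 from 15623897 to 15637400, was at 8.12, 7.79 and 7.89 CPM against 6.64, 7.15 and 6.35 CPM. This was a small difference between narrow groups, with a log2 fold change of 0.24 (SE 0.12, edgeR adjusted p = 0.256). Mcm3 and Mcm5 had log2 fold changes of 0.39 and 0.68 with overlapping groups (0.39 and 0.38 without control mouse 2). Mcm2 was at -0.036 and Mcm7 at -0.11, but at 0.11 and 0.037 with library totals in place of TMM and at 0.078 and 0.037 without control mouse 2. Control mouse 2, the lowest mouse for Mcm5 and Mcm6, was the highest of the 6 mice for Mcm7, at 8.60 CPM. The exons of Mcm7 overlap Ap4m1 and Cops6 on the opposite strand and 2 miRNA genes, Mir25 and Mir93, on its own, so its counts are uncertain. Of the factors that load and start the helicase, Cdc45 (1.26 to 1.90 CPM over all 6 mice) and Gins1 (0.54 to 1.27 CPM) overlapped fully between the groups. Cdt1, a licensing factor, was at 1.52, 0.78 and 0.75 CPM against 0.70, 0.66 and 0.60 CPM, only 8 to 24 counts. Cdc6, another, had 17, 10 and 3 counts in the mAktDKO mice and 1, 7 and 5 in the control mice.

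Among the enzymes that supply deoxynucleotides, Rrm2 had the smallest p of the 44 genes. Rrm2 encodes the small subunit of ribonucleotide reductase that is made in the S phase, and lies on chromosome 12 from 24708241 to 24714146. It was at 4.12, 3.23 and 2.26 CPM in mAktDKO and 1.12, 1.90 and 0.98 CPM in control mice, or 33 to 65 counts against 13 to 26. Every mAktDKO mouse lay above every control mouse, and control mouse 2 was not the lowest. The means were 3.21 ± 0.93 and 1.33 ± 0.49 CPM (SD, n = 3 each), a log2 fold change of 1.26 (SE 0.33, unadjusted p = 0.00379 and edgeR adjusted p = 0.0755). Without control mouse 2 it was 1.15 (SE 0.36, edgeR adjusted p = 0.137). Rrm1, the large subunit of the same enzyme, which lasts through the cell cycle, is on chromosome 7 from 102441695 to 102469771. It was at 35.7, 28.3 and 30.3 CPM against 34.1, 34.3 and 35.8 CPM, a log2 fold change of -0.14 (SE 0.10, edgeR adjusted p = 0.398). The log2 fold change of Rrm1 was -0.0061 when scaled by library totals, and without one mouse it ranged from -0.25 to -0.074. The difference between the 2 subunits was not tested. Tyms, which makes thymidylate, is on chromosome 5 from 30058202 to 30073617. Its level was 1.71, 1.26 and 1.17 CPM against 0.49, 1.02 and 1.29 CPM. The log2 fold change of Tyms was 0.57 (SE 0.38, edgeR adjusted p = 0.374), and 0.26 without control mouse 2. Tk1, the thymidine kinase of the S phase, ranged from 1.38 to 1.85 CPM and from 1.12 to 1.82 CPM.

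The mitotic genes varied widely between mice, within both genotypes. Over the 17 tested of the 20, the median log2 fold change was 0.96 with a median SE of 0.63, against 0.23 and 0.21 for the 22 tested genes of the other groups. Without control mouse 2, when Plk1, Bub1 and Birc5 also passed the filter, the medians were 0.60 over all 20 mitotic genes and 0.11 over the 22 others. Mki67, which encodes the Ki-67 protein of dividing cells, lies on chromosome 7 from 135689784 to 135716361 and was the most abundant of them per length, at 2.08 CPM per kilobase in the mAktDKO mice and 1.07 in the control mice. It was at 29.4, 22.4 and 10.8 CPM in mAktDKO and 2.45, 20.9 and 8.92 CPM in control mice. Control mouse 3 was almost level with mAktDKO mouse 2, and mAktDKO mouse 3 with control mouse 4. The means were 20.9 ± 9.39 and 10.8 ± 9.38 CPM (SD, n = 3 each), and the log2 fold change was 0.96 (SE 0.59, edgeR adjusted p = 0.33) with all mice and 0.48 (SE 0.41, edgeR adjusted p = 0.545) without control mouse 2. It was 1.89 without control mouse 3 and 0.63 without mAktDKO mouse 1. The counts behind these values were 464, 374 and 158 against 35, 287 and 118.

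Top2a, the topoisomerase that disentangles sister chromatids, is on chromosome 11 from 98992943 to 99024189. It followed the same order of mice, at 14.5, 10.9 and 4.73 CPM against 0.84, 10.1 and 4.61 CPM, with a log2 fold change of 0.96 (SE 0.63, edgeR adjusted p = 0.368), and 0.44 without control mouse 2, 1.90 without control mouse 3 and 0.60 without mAktDKO mouse 1. Prc1, which bundles microtubules of the central spindle, is on chromosome 7 from 80294450 to 80316259 and was at 5.39, 3.77 and 1.92 CPM against 0.14, 3.28 and 0.83 CPM. Its log2 fold change of 1.39 was the largest of the 39 genes (SE 0.71, edgeR adjusted p = 0.255), and it rested in part on 2 counts in control mouse 2. Without that mouse it was 0.84, and without control mouse 3 it was 2.94. Kif11, the motor that separates the spindle poles, is on chromosome 19 from 37376403 to 37421859 and was at 5.64, 3.53 and 2.13 CPM against 1.12, 3.14 and 1.44 CPM (log2 fold change 0.99, SE 0.44, edgeR adjusted p = 0.204). The fold change was 1.56 on the log2 scale without control mouse 3 and 0.58 without mAktDKO mouse 1. The centromere protein genes Cenpe (1.78 to 3.49 CPM against 0.35 to 2.55 CPM) and Cenpf (3.57 to 8.43 CPM against 0.35 to 7.66 CPM) had log2 fold changes of 0.92 and 0.90, and of 0.45 and 0.35 without control mouse 2. Kif20a, a motor of cytokinesis, and Nusap1, a spindle protein, were at 0.35 and 0.84, and at 0.16 and 0.34 without that mouse. Cdc20 and Ube2c, which work with the anaphase-promoting complex, were at 0.92 and 1.09, with 7 counts each in mAktDKO mouse 3. Without control mouse 2 they were at 0.56 and 0.62. The exons of Ube2c overlap on the opposite strand those of Tnnc2, a troponin gene at 2948 to 4960 CPM in these libraries. Its counts are therefore uncertain, since the libraries were strand-specific but the strand setting of the counting is not given in the sources used here. Antisense overlap with a listed gene also holds for Cdc20, Nusap1, Prc1, Kif20a, Ccna2, Tk1, Cdk2, Cdk4, Ccnd2, Ccnd3 and Ccne2.

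Among the mitotic cyclins and kinases, Cdk1, the kinase that drives entry into mitosis, is on chromosome 10 from 69335146 to 69352938. It was at 2.73, 1.80 and 0.82 CPM in mAktDKO and 0.070, 1.39 and 0.76 CPM in control mice, where the lowest value was 1 count. The log2 fold change was 1.28 (SE 0.67, edgeR adjusted p = 0.268) and 0.73 without control mouse 2, 2.13 without control mouse 3 and 0.85 without mAktDKO mouse 1. Bub1b, the spindle checkpoint kinase BubR1, is on chromosome 2 from 118598211 to 118641591. It differed from this order and was at 2.22, 2.04 and 1.78 CPM against 0.91, 1.39 and 0.60 CPM, with no overlap between the groups. Its log2 fold change was 1.05 (SE 0.33, unadjusted p = 0.0103 and edgeR adjusted p = 0.107), and 1.00 without control mouse 2. Aurka, the kinase of the spindle poles, is on chromosome 2 from 172356190 to 172370535 and was the only tested mitotic gene with a negative value. It was at 2.35, 1.56 and 1.71 CPM against 2.45, 2.77 and 2.04 CPM (log2 fold change -0.37, SE 0.25, edgeR adjusted p = 0.385). The log2 fold change of Aurka was -0.57 without mAktDKO mouse 1, -0.25 without mAktDKO mouse 2 and -0.23 with library totals. The cyclins Ccna2, Ccnb1 and Ccnb2 had log2 fold changes of 0.71, 1.07 and 0.83 with standard errors from 0.53 to 0.70, and Aurkb, the kinase of the chromosomal passenger complex, was at 1.09. Without control mouse 2 they were at 0.27, 0.61 and 0.61, and Aurkb at 0.58. Plk1, Bub1 and Birc5, the latter another passenger protein, had 1 to 23 counts in every mouse and were below the filter with all mice.

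The order of the mice was shared across the mitotic genes. Of the 20 mitotic genes, 20 had their highest control value in control mouse 3, 17 had their lowest control value in control mouse 2, 19 had their highest mAktDKO value in mouse 1 and 19 had their lowest in mouse 3. In 19 of the 20, control mouse 3 lay above mAktDKO mouse 3. The 17 tested mitotic genes summed to 90.7, 66.9 and 35.0 CPM in mAktDKO and 11.3, 65.2 and 27.5 CPM in control mice, so the range within each genotype was wider than the distance between the means of 64.2 ± 27.9 and 34.7 ± 27.7 CPM (SD, n = 3 each). Of the 24 genes of the other groups, control mouse 3 was the highest control for 13 and control mouse 2 the lowest for 16, while mAktDKO mouse 1 was the highest mAktDKO mouse for 18 and mAktDKO mouse 3 the lowest for 12. The difference between these counts and those of the mitotic genes was not tested. As these genes come from the same 6 libraries, their common order counts as 1 observation and not as many.

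**Figure D4:**
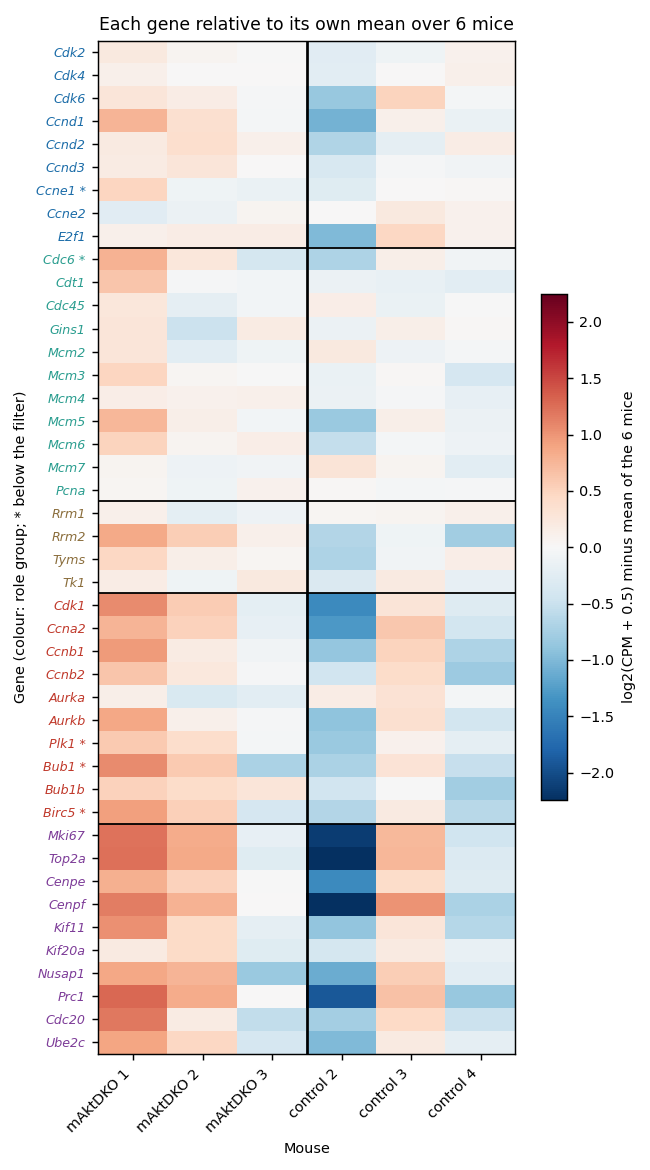
Level of the 44 genes in each mouse as log2(CPM + 0.5) minus the gene's mean over the 6 mice (colour; red above and blue below the mean), with genes ordered by role (label colour) and genes below the filter marked by an asterisk. The mitotic genes are high in mAktDKO mice 1 and 2 and control mouse 3 and low in control mouse 2, and most genes of licensing and the replication fork stay pale.

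Further genes of the same pathways were read from the same fit. Of 55 further mitosis genes, 39 were tested, 37 lay above 0, and the median log2 fold change was 0.62 (0.39 without control mouse 2). With edgeR 0 were called at an adjusted p under 0.05, and at an unadjusted p under 0.05 4 were higher and 2 lower, beside 11.4% and 13.1% of all genes. Ckap2l, a spindle protein gene, was at 1.69 with overlapping groups (SE 0.56, edgeR adjusted p = 0.125), and at 1.23 without control mouse 2. Bub3 and Pttg1, of the spindle checkpoint and sister chromatid separation, were at -0.28 and -0.45 (-0.24 and -0.28 without control mouse 2) with groups that did not overlap. Of 44 further replication genes, 38 were tested and 15 lay above 0 and 23 below, with a median of -0.039, and with library totals in place of TMM 24 lay above 0 with a median of 0.10. With edgeR 0 were called at an adjusted p under 0.05, and at an unadjusted p under 0.05 1 was higher and 2 lower, beside the same shares of all genes. Here Orc4, of the origin recognition complex, was at 0.29, and Gmnn, the inhibitor of Cdt1, at -0.72. Of 24 genes of the E2F, pocket protein and DREAM families, with the early growth genes Myc, Jun and Fos, 17 lay above 0, and at an unadjusted p under 0.05 5 were higher and 1 lower, beside 11.4% and 13.1% of all genes. With edgeR 1 was called at an adjusted p under 0.05, in the higher direction, beside 0.264% of all genes. This was Myc, a growth regulator upstream of the G1 cyclins, at 9.19, 8.45 and 8.71 CPM in mAktDKO and 4.12, 5.33 and 4.99 CPM in control mice. Its groups were far apart, with a log2 fold change of 0.87 (SE 0.14, edgeR adjusted p = 0.0396) and 0.77 without control mouse 2 (edgeR adjusted p = 0.0443). It did not pass the threshold of 0.01.

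Histone genes were tested because libraries made by depletion of ribosomal RNA also hold the replication-dependent histone transcripts, which lack a poly(A) tail. Of 68 such genes by symbol, 53 were tested, 41 lay above 0 with a median of 0.43 (0.16 without control mouse 2), and 0 were called (edgeR, adjusted p under 0.05; at an unadjusted p under 0.05, 3 were higher and 2 lower, beside 11.4% and 13.1% of all genes). They summed to 377, 302 and 239 CPM in mAktDKO and 280, 352 and 266 CPM in control mice, which overlapped. Hist1h4c and Hist1h4i, both of histone H4, were at -0.55 and -1.01, and Hist1h2be, of histone H2B, at 0.93, each with groups that did not overlap. Members of each histone family are near-identical, so the division of reads between them is uncertain.

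Markers of cells that lie between the fibres were read in the same mice. The 9 tested macrophage markers all lay above 0, and the list of 10 summed to 154, 143 and 122 CPM in mAktDKO and 81.7, 131 and 125 CPM in control mice, lowest in control mouse 2. Ptprc, the pan-leukocyte gene CD45, was at 7.10, 6.71 and 6.51 CPM against 2.94, 4.60 and 5.52 CPM, with no overlap, while the other 9 lymphocyte markers were each below the filter and Cd3d was at 0 in every mouse. The erythroid list, of which 5 markers were tested, summed to 321, 254 and 150 CPM against 168, 161 and 114 CPM. The early erythroid gene Klf1 was below 0.2 CPM in every mouse, and Hbb-bs, which belongs to a cluster of near-identical globin genes, was at 0 in every control mouse and passed the filter only through the mAktDKO mice, so no call is read from it. Markers of neutrophils and bone marrow were nearly absent, with a sum from 0.076 to 0.63 CPM, and Mpo, Elane and Retnlg were at 0 in every mouse.

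The 10 endothelial markers summed to 721, 656 and 618 CPM in mAktDKO and 599, 686 and 552 CPM in control mice, with 5 above 0 and 5 below (10 above 0 with library totals). The 10 markers of satellite cells and myoblasts summed to 193, 187 and 181 CPM against 171, 185 and 172 CPM, and 8 of them lay above 0 and 2 below. At an unadjusted p under 0.05 (edgeR) 2 were higher and 1 lower, beside 11.4% and 13.1% of all genes. Without overlap between the groups 3 were higher and 1 lower, beside 14.5% and 16.6% of all genes. Pax7, the defining gene of satellite cells, was at 2.98 to 4.19 CPM against 2.92 to 3.85 CPM. Myf5, another gene of this list, was higher with no overlap between the groups. Its log2 fold change was 0.59 (edgeR adjusted p = 0.179), and 0.41 without control mouse 2. Myog, the myogenin gene of differentiating myoblasts, was at 13.8, 12.2 and 8.23 CPM against 4.26, 7.51 and 4.69 CPM, with a log2 fold change of 1.06 (edgeR adjusted p = 0.0642). Which cells of the whole muscle, fibres included, gave the Myog transcripts was not tested. The 2 markers below 0 were Cdh15, the M-cadherin gene, and Myod1, a myogenic transcription factor gene. Cdh15 was at 14.7, 15.9 and 14.4 CPM against 24.3, 18.6 and 17.2 CPM. Its log2 fold change was -0.42 (edgeR adjusted p = 0.122), and -0.25 without control mouse 2. Myod1 was at -0.18 with overlapping groups. Of the 10 markers of fibro-adipogenic progenitors 9 lay above 0, and 1, Dpp4, was higher at an adjusted p under 0.05 (0.90, edgeR adjusted p = 0.0474), beside 0.264% of all genes. Pericyte and smooth muscle markers summed to 1212 to 1298 CPM against 1130 to 1241 CPM. The adipocyte list was higher on average, at 375 to 510 CPM against 291 to 340 CPM. All 8 tested adipocyte markers lay above 0, with a median of 0.94 (0.86 without control mouse 2). With edgeR 0 were called at an adjusted p under 0.05. At an unadjusted p under 0.05 7 were higher, beside 11.4% of all genes, and only Fabp4 had no overlap between the groups. The Schwann cell list was also higher on average (428 to 539 CPM against 348 to 443 CPM). So was the tenocyte list (16184 to 20979 CPM against 7134 to 16523 CPM), whose sum was mostly Col1a1. Control mouse 2 was lowest for Col1a1 (5899 CPM), Tnmd, Mkx, Tnc and Kera, and control mouse 3 for Scx, Thbs4, Fmod, Comp and Chad. All 10 fibre markers lay below 0 with a median of -0.31 (9 of 10 with library totals), and 7 of them were lower with no overlap between the groups, beside 16.6% of all genes. The part of these cell types in the level of the mitotic genes was not tested.

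**Figure D5:**
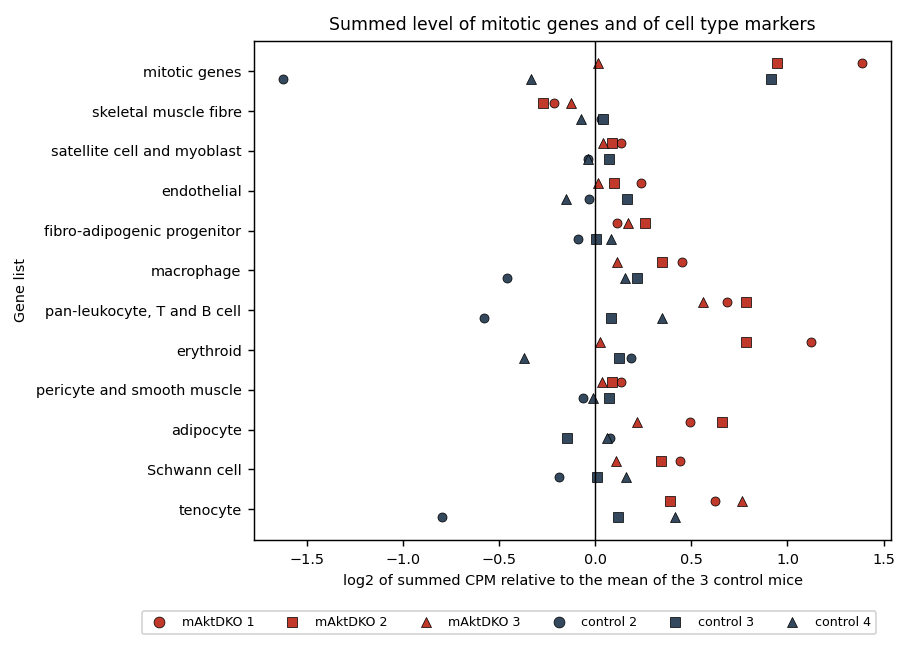
Summed CPM of the 17 tested mitotic genes and of 11 marker lists in each mouse, as log2 of the ratio to the mean of the 3 control mice (horizontal axis), mAktDKO in red and control in dark blue. The neutrophil and bone marrow list, near 0 in every mouse, is left out, and the mitotic genes run from 11.3 CPM in control mouse 2 to 90.7 CPM in mAktDKO mouse 1.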

How the data were processed

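RNA of EDL was sequenced by the authors from 3 mAktDKO and 3 control floxed mice as strand-specific, rRNA-depleted libraries with paired-end, 37 bp reads. The reads were demultiplexed with bcl2fastq and mapped to mm10 with STAR (2.6.1b per the labels, another version in the paper), and genes were counted with RSEM 1.3.1. Deposited were RSEM's expected counts of 24411 gene symbols, with no scaling between mice. RSEM divides reads that fit several genes. The control mice are numbered 2 to 4 in the table but 1 to 3 in the labels, so they stand for their group. No 2 mice had identical counts, and chi-square divided by the degrees of freedom was 7.64 to 69.9 for a pair of mice. The labels number the samples without naming animals, so p-values measure only the spread between these samples, which may be technical.

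The counts were rounded to whole numbers, filtered in edgeR 4.0.16 by filterByExpr (at least 10 counts, here 0.68 CPM in at least 3 mice), scaled by TMM and tested over 12892 genes with the quasi-likelihood test in R 4.3.3, with Benjamini-Hochberg adjustment over all of them and a threshold of 0.01. The standard error is the log2 fold change divided by the square root of F. CPM values use the unrounded counts, and log2 CPM a prior count of 2. The steps were tested on simulated data. Exon lengths and coordinates are from GENCODE M21 (GRCm38), the build of mm10, and promoters from RefSeq. Named in full were Mki67, Top2a, Pcna and genes with an unadjusted p under 0.05. In each role group the 2 genes with the smallest p and the most abundant per length were also named in full. Of each further list at most 4 genes were named, except for the satellite cell and tenocyte lists. The genes and lists were chosen with earlier results of these data known, so no p over a list is given. Alternatives were other scalings, DESeq2 1.42.0, other filters and thresholds, and leaving out each mouse. Floors and intervals of counts cover counting error only.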

Additional observations from a re-analysis of the deposited data

How the results depend on the processing

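No paired analysis was possible because control mice 2 to 4 of the table cannot be matched one by one to the labelled control samples. Neither the labels nor the paper states that mAktDKO and control mice form pairs, so such matching would not by itself have given pairs. The fits with a replicate block were therefore not run. Of the 44 genes, 0 were called under each scaling, filter and threshold tried, with DESeq2's Wald test and without any one mouse. Over all genes the number called was 3, and it was 152 at an adjusted p under 0.05, 32 with no filter on low counts, 341 with DESeq2, and from 0 to 8 without one mouse. Among the further cell cycle lists it was 0, and 1 at an adjusted p under 0.05 and with DESeq2. The cause was not tested.

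The difference in mean log2 CPM over the tested genes was 0.60. When one mouse was left out and the filter and scaling were computed anew, which raised the tested genes from 39 to 42 for 4 of the 6 mice, it was from 0.32 (without control mouse 2, and 0.30 over the same 39 genes) to 0.94 (without control mouse 3), and it was 0.37 with at least 10 counts in every mouse, a filter that by construction removes genes low in control mouse 2 and left 23 of the 44. With that filter the mean of the mitotic cyclins and kinases was carried by Aurka alone, at -0.35. The number of tested genes higher in every mAktDKO mouse was 6 and ranged from 6 to 25 without one mouse, with 25 of 42 without control mouse 3 (21.1% of all genes) and 20 of 42 without mAktDKO mouse 3 (20.8% of all genes), against 14.5% of all genes with all mice. The log2 fold change of Pcna ranged from -0.034 to 0.080 without one mouse. Library totals moved the median of all genes from 0.017 to 0.16, and the median of the members minus that of all genes was 0.55 with either scaling. For the 16 genes named in full and the 5 role groups, 241 values under an alternative kept their direction and side of the threshold or stayed within the spread between mice, 1 moved and 1 reversed. For the other members this was not counted, and Cdk4, Cdk6, E2f1, Gins1, Mcm2 and Mcm7 change sign without control mouse 2. In control mouse 2, 11 of the 44 genes had at most 3 counts, the floor at this depth. These alternatives for the role groups, the further lists and the genes whose groups do not overlap were chosen after seeing the data.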
